A study of Daphnia sinensis with 8 samples.

Results

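The adult females of *D. sinensis* in 2 reproductive modes were compared: parthenogenetic females (PF, 2 libraries) and sexual females (SF, 2 libraries). They were chosen by their sample labels and make up 4 of the 8 libraries of the study. The other 4 libraries, from juvenile females (JF) and males (M), show where these stages lie for the same genes. All animals descend from a stock collected in Lake Chaohu and were kept at 25 ℃ on a green alga. PF and SF came from the same experiment with 60 mothers, 10 to a beaker in 6 beakers, and were picked under the microscope once the population had become dense. PF carried eggs for the first time and SF carried resting eggs, and both are labelled as adults of 2 to 3 weeks. A sample pooled about 50 PF or 50 SF. M, with about 60 males to a sample, had been taken as juveniles from this experiment and cultured apart for 2 weeks, and also carry the label 2 to 3 weeks. JF, with about 500 animals to a sample, were younger than 12 h and were born to 20 mothers of a different experiment, in which every mother had her own beaker. Age and culture therefore cannot be told apart from stage wherever JF is compared, nor can culture where M is.

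*Daphnia* females make either diploid eggs, which develop at once in the brood chamber without fertilization, or haploid resting eggs, which need a male and are shed in a hardened case, the ephippium, formed from the moulted carapace. Crowding, short days and poor food favour the switch to resting eggs. Like other arthropods, *Daphnia* moults throughout adult life, and chitin of the old cuticle is broken down by chitinases while chitin synthase builds the new one. Whole animals were sequenced, so the RNA of the eggs and embryos they carried is part of each sample. A different share of a tissue and a different level per cell cannot be told apart in such pools.

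The total estimated count was 24960732 and 17172891 in PF replicates 1 and 2, and 22523969 and 20204902 in SF. In the other stages it was between 18688623 and 27160267. The same 11114 unigenes are listed for every library, none with a count of 0. The study's assembly holds more unigenes than these, including ones that it found in a single stage. A unigene with a count of 0 in any library is absent from the list. Genes wholly silent in PF or in SF can therefore not be seen, and the shares below do not cover them. Of the 11114, 10822 passed edgeR's filter on low counts and were tested. Levels are counts per 1000000 counts after TMM scaling (CPM), which are not divided by the length of the unigene. *Doublesex2* (Cluster-5789.12340), a member of the family of DM-domain regulators that act in sexual differentiation, was read as the only named marker of sex. It had 3.45 and 5.90 CPM in PF, 4.03 and 3.91 in SF, 5.65 and 4.06 in JF, and 228 and 221 in M. All female libraries were far below the male ones, and PF and SF overlapped (log2 fold change 0.23, standard error 0.27, adjusted p = 0.569). The study had chosen this gene as male-biased on these same libraries. Its gap between M and the females follows from that choice and is no independent check of sex. No ID is paired with a gene name that marks either kind of egg, so the labelled reproductive mode could not be checked against markers.

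Of the tested unigenes, 524 (4.84%) were higher in PF and 1080 (9.98%) were higher in SF. Both kinds together were 14.8% of the tested unigenes. A unigene was called a differentially expressed gene (DEG) at an adjusted p under 0.05 and a change of more than 2-fold in edgeR's quasi-likelihood test. Both PF libraries were above both SF libraries for 31.7% of all tested unigenes, and the reverse held for 32.4%. Among the DEGs the libraries did not overlap in any of the 524 and 1080. Over the 10822 tested unigenes the median log2 change was -0.02, which TMM scaling holds near 0.

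The changes toward SF were larger. The median DEG was 2.65-fold higher in PF or 3.90-fold higher in SF. A change of 2 to 4-fold was found for 416 (79.4%) of the DEGs higher in PF and 553 (51.2%) of those higher in SF. Above 16-fold there were 8 (1.53%) and 137 (12.7%). With the adjusted p alone and no limit on the fold, 1449 unigenes were higher in PF and 1535 in SF. With the fold limit inside the test (glmTreat), 126 and 493 were left. The excess toward SF was thus found among the large changes. On the 4 PF and SF libraries alone, where the spread of JF and M does not enter, edgeR called 196 and 513 unigenes, of which 194 and 508 were among those above. DESeq2 called 521 and 1090 on these 4 libraries, so the smaller counts hold for edgeR only.

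**Figure D1:**
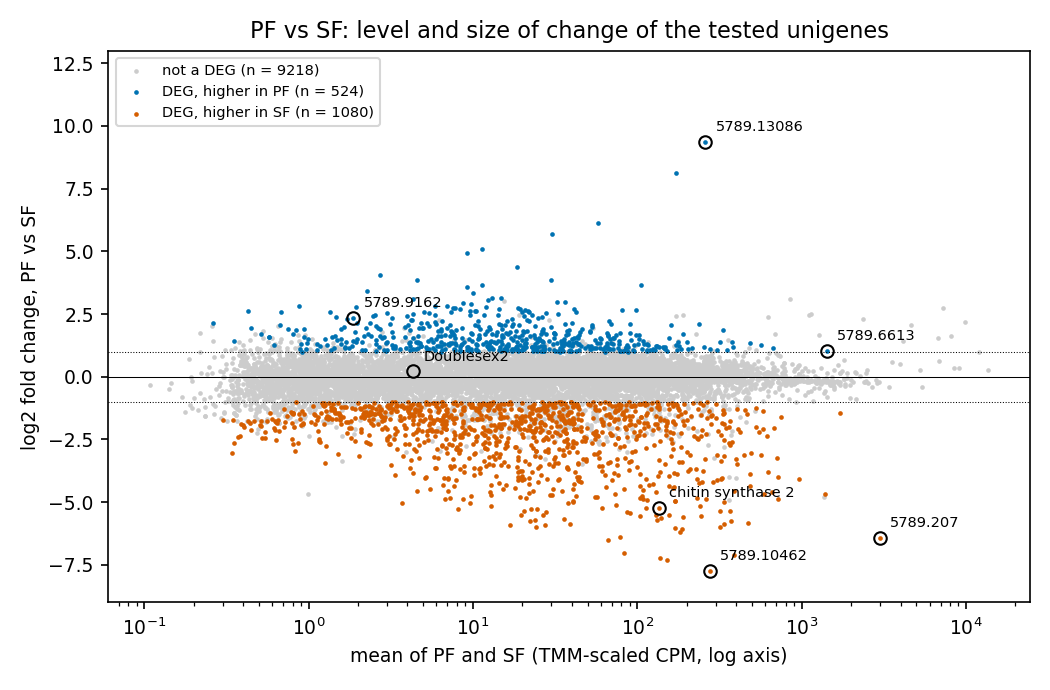
Log2 fold change of PF vs SF (vertical axis, positive is higher in PF) against the mean of PF and SF in TMM-scaled CPM (log axis) for the 10822 tested unigenes. Blue points are the 524 DEGs higher in PF, orange points the 1080 higher in SF, gray points are no DEGs, dotted lines mark 2-fold, and circles mark unigenes named in the text; the largest changes reach 9.37 toward PF and -7.74 toward SF.

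The DEGs of either direction also differed in level. Unigenes were split into 4 classes of equal size by the mean CPM over all 8 libraries. The lowest class held 103 DEGs higher in PF (3.81% of its unigenes) and 207 higher in SF (7.65%). The next class held 231 (8.54%) and 332 (12.3%), and the one above it 124 (4.58%) and 246 (9.09%). The highest class, above 84.9 CPM, held 66 of the former (2.44%) and 295 of the latter (10.9%). Over all tested unigenes these shares were 4.84% and 9.98%. In the highest class the share higher in SF was thus close to that of all tested unigenes, and the share higher in PF was below it. In their higher stage, 82 DEGs of PF and 286 of SF exceeded 100 CPM, and 1 and 14 exceeded 1000 CPM. In the lower stage, 56 DEGs of PF and 159 of SF were under 1 CPM. Of the 624 tested unigenes outside the main assembly cluster, 63 (10.1%) were higher in PF and 39 (6.25%) in SF. The files do not say what these unigenes are. In the study's homology search, part of all unigenes matched *Tetrahymena thermophila* and other species outside *Daphnia*, but their IDs are not given. Whether this applies to the 624 was not tested.

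The DEGs higher in SF took up 13.6% and 11.6% of all counts in the SF libraries and 2.29% and 2.43% in the PF libraries. Males gave them an even larger share, 18.2% in both libraries. JF stood between PF and SF with 9.20% and 8.58%. The DEGs higher in PF were a small part of every library, with 2.86% and 3.66% in PF and 1.17% and 1.20% in SF. For these, JF (1.93% and 2.07%) and M (1.76% in each) lay between both adult female stages. The PF and SF values follow from how the DEGs were chosen. The JF and M libraries took no part in the contrast, but they entered the filter, the scaling and the spread behind each call.

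**Figure D2:**
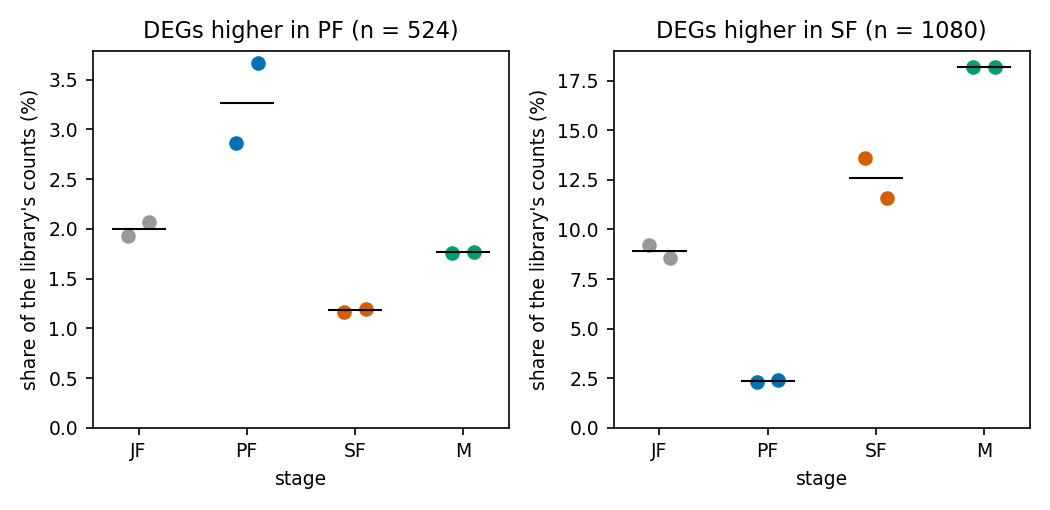
Share of each library's counts (vertical axis, %) taken by the 524 DEGs higher in PF (left) and the 1080 higher in SF (right), by stage; points are libraries and lines the mean of 2. For the DEGs higher in SF, PF lies lowest at 2.29% and 2.43% and M highest at 18.2%.

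For the DEGs higher in SF, males mostly lay above the level of SF. The mean of M was above both PF and SF for 714 of the 1080 (66.1%), between them for 317 (29.4%) and below both for 49 (4.54%). Over all 5532 tested unigenes with SF above PF by any amount, these shares were 48.5%, 21.0% and 30.5%. Both male libraries were above all 4 PF and SF libraries for 570 of the DEGs (52.8%) and for 1987 (35.9%) of the 5532. The median DEG of this kind was 0.43 above SF and 2.45 above PF in M on the log2 scale. By mean log2 CPM, PF was the lowest of all 4 stages for 885 (81.9%) of them, and M was the highest for 584 (54.1%), SF for 271 (25.1%) and JF for 225 (20.8%). Over the 5512 tested unigenes with a higher mean log2 CPM in SF than in PF, PF was lowest for 57.2%, M highest for 28.9%, SF for 34.4% and JF for 36.7%. A lowest level in PF was thus frequent without a call too, and these shares were not tested against each other.

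Juvenile females were more often in between. For the DEGs higher in SF the mean of JF was between PF and SF in 605 (56.02%), above both in 307 (28.4%) and below both in 168 (15.6%). Over all tested unigenes with SF above PF, the share in between was 23.3%. The most frequent combination was M above both stages with JF between them, found for 407 DEGs (37.7%). Over all tested unigenes, taken without regard to direction, it was found for 7.27%. DEGs were chosen for a gap of more than 2-fold between PF and SF. The median absolute log2 change over all tested unigenes was only 0.42. A wider gap leaves more room for JF or M to lie between PF and SF. The higher shares in between can therefore follow from this choice, and an excess beyond it was not tested.

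The DEGs higher in PF showed another arrangement. The mean of M was between SF and PF for 307 of the 524 (58.6%), above both for 94 (17.9%) and below both for 123 (23.5%). The mean of JF was above both for 208 (39.7%), between for 191 (36.5%) and below both for 125 (23.9%). Over all 5290 tested unigenes with PF above SF, M was between for 21.7%, above both for 25.4% and below both for 52.9%. JF was above both for 36.3% of them, between for 13.9% and below both for 49.8%. The share of DEGs with JF above both was thus close to this background. Here too, the higher shares in between can follow from the choice of DEGs by fold. On the log2 scale JF was nearer to PF than to SF for 341 (65.1%) of these DEGs, and M for 223 (42.6%). Over all tested unigenes with PF above SF by any amount, JF was nearer to PF for 43.9% and M for 35.1%. The share for JF was 47.0% with the adjusted p alone, and that for M was 54.4% without SF replicate 1. PF was the highest stage for 281 (53.6%), JF for 178 (34.0%) and M for 65 (12.4%), while SF was the lowest for 346 (66.0%). Over the 5310 tested unigenes with a higher mean log2 CPM in PF than in SF, PF was highest for 55.6%, JF for 30.4% and M for 14.0%, and SF was lowest for 35.1%. The shares of the highest stage were thus close to this background.

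**Figure D3:**
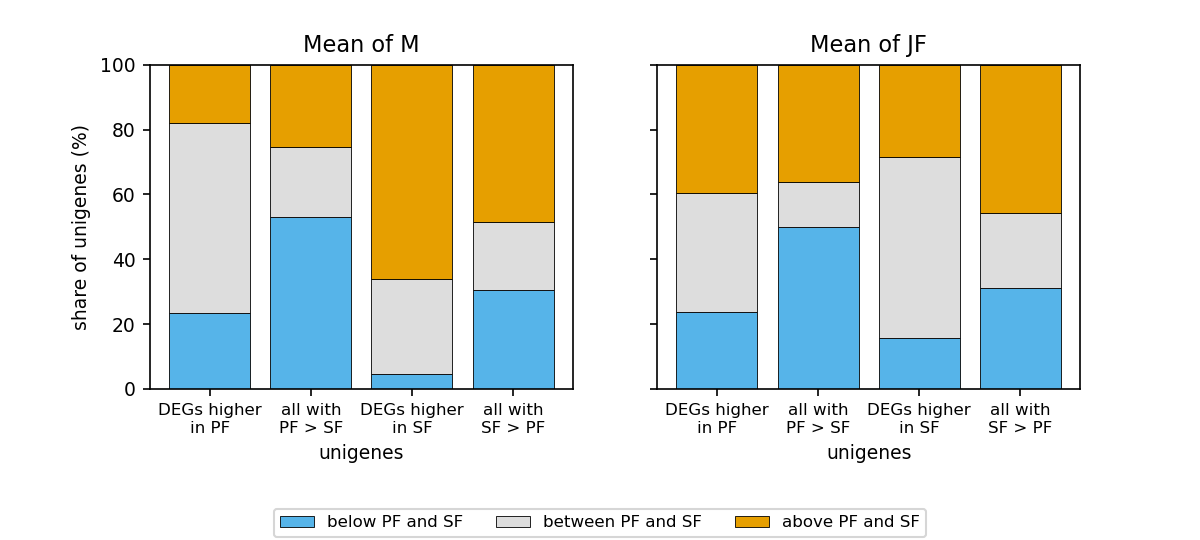
Share of unigenes (vertical axis, %) whose mean log2 CPM in M (left) or JF (right) lies below, between or above those of PF and SF, for the DEGs of each direction and for all tested unigenes that differ in that direction by any amount. M lies above both stages for 66.1% of the DEGs higher in SF and 17.9% of those higher in PF.

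The contrast of M with JF sets no PF or SF library against another, but its calls share the filter, scaling and spread with PF and SF. Over all tested unigenes it called 29.1%, with 13.6% higher in M and 15.6% higher in JF. Of the DEGs higher in SF, 515 (47.7%) were higher in M and 109 (10.1%) higher in JF, with a median log2 fold change of 1.03. Of the DEGs higher in PF, 74 (14.1%) were higher in M and 172 (32.8%) higher in JF, with a median of -0.53. The median over all tested unigenes was -0.14, and -0.04 with DESeq2 size factors. The share of DEGs higher in SF that were called higher in M was more than 3 times that of all tested unigenes, and the share of DEGs higher in PF called higher in JF was about 2 times that of all tested unigenes. These are counts with no set test, and all stages share a single estimate of the spread. A unigene with a small shared spread passes more readily in both contrasts. How much this adds to the shares called was not tested.

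The largest change among the DEGs higher in PF with at least 10 CPM was that of Cluster-5789.13086, an ID without a name in the files. It had 597 and 438 CPM in PF and 0.695 and 0.857 in SF. In JF it had 15.3 and 12.4 CPM and in M 8.87 and 8.71. PF was far above all other stages and SF far below them. The log2 fold change of PF vs SF was 9.37 (standard error 0.27, adjusted p = 8.01e-05), a 663-fold difference, and it was called under each of the 21 alternatives. The highest level among these DEGs was that of Cluster-5789.6613, with 1862 and 1969 CPM in PF, 993 and 871 in SF, 421 and 491 in JF, and 705 in each M library. Here SF also lay above JF and M. Its log2 fold change of 1.04 (standard error 0.13, adjusted p = 0.00292) is close to the limit of 1 and fell to 0.94 without SF replicate 2. Of the 20 DEGs with the largest changes toward PF, 19 had their highest mean in PF, and their median level was 3.11 CPM in M and 3.17 in JF. Over all 524 DEGs higher in PF, PF was highest for 53.6%.

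In the other direction, Cluster-5789.10462 changed most. It had 113 and 984 CPM in SF, 2.64 and 2.49 in PF, 6.23 and 5.81 in JF, and 6.40 and 6.54 in M. The level was low in all stages but SF, and the SF libraries differed 8.69-fold from each other. The log2 fold change of PF vs SF was -7.74 (standard error 1.17, adjusted p = 0.00753). On the 4 libraries alone, edgeR did not call it (adjusted p = 0.0661) and DESeq2 did (adjusted p = 5.69e-15). Its size rests on SF replicate 2, without which the log2 fold change was -5.46, and without SF replicate 1 it was -8.63. Cluster-5789.207 had the highest level in SF, with 4072 and 7712 CPM. It had 7.23 and 131 CPM in PF, 2.41 and 2.90 in JF, and 4.76 and 4.06 in M. The second PF library was 18.1-fold above the first but still far below SF. The log2 fold change was -6.42 (standard error 1.41, adjusted p = 0.0232), -5.56 without PF replicate 1 and -9.67 without PF replicate 2. The call was lost without either SF library or either M library, and with glmTreat (adjusted p = 0.0746). On the 4 libraries alone, edgeR did not call this unigene (adjusted p = 0.115) and DESeq2 did (adjusted p = 2.70e-07). Of the 20 DEGs with the largest changes toward SF, 6 had their highest mean in SF, and in 13 M was above SF. Over all 1080 DEGs higher in SF, SF was highest for 25.1% and M lay above both PF and SF for 66.1%. The 20 thus did not stand apart from the whole list in this.

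Unigenes that peaked in SF formed a smaller set within the DEGs higher in SF. Their median level was 9.67 CPM in SF, 2.60 in PF, 3.57 in JF and 4.35 in M. Of the 271, 25 changed more than 16-fold, against 111 of the 584 that were highest in M. Among these 25, PF replicate 2 was more than 2-fold above PF replicate 1 in 7 and the reverse held in 1.

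Some of the most abundant unigenes had fold changes above the limit but did not pass the test. Above 500 CPM in the mean of PF and SF, 14 unigenes had log2 fold changes from 1.06 to 3.11 toward PF and adjusted p-values from 0.0914 to 0.453, while 3 were called. Toward SF, 2 such unigenes were not called and 19 were called. The group of 14 was chosen for its fold toward PF after its values had been seen. All 14 had both PF libraries above both SF libraries, which this choice favours and which held for 31.7% of all tested unigenes. PF replicate 1 was above PF replicate 2 in all. Together they took up 9.98% and 5.74% of the scaled counts in PF, 3.33% and 0.683% in SF, 2.07% and 2.10% in M, and 0.193% and 0.421% in JF.

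Of these, 10 belong to a run of 12 consecutive IDs, from Cluster-5789.10178 to Cluster-5789.10189. The files do not name them, and reads of similar copies could have been split between such neighbours, so their single values are uncertain. The 10 unigenes summed to 7.64% and 4.43% of the scaled counts in PF, 2.38% and 0.390% in SF, 1.83% and 1.86% in M, and 0.0137% and 0.195% in JF. The order of stages was PF, then SF and M, then JF, but the replicates of each female stage lay far apart. SF replicate 1 was 2.74 to 10.6 times SF replicate 2 over the 10, and JF replicate 2 was 9.13 to 18.3 times JF replicate 1. Their log2 fold changes of PF vs SF were between 1.61 and 2.75 with standard errors from 1.06 to 1.46, and none was called (0 of 12 in the whole run).

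Gene names were at hand only for the genes that the study had chosen as male-biased, of which 28 of 36 are listed. The study picked candidates from the largest increases in M over each female stage on these same libraries. It then kept those that its qPCR showed to be higher in M than in JF, PF and SF. The levels in PF and SF thus entered the choice. Their counts in PF vs SF are therefore a description and no independent evidence of a direction. Of the 28, 15 (53.6%) were higher in SF, against 9.98% of all tested unigenes, 2 (7.14%) were higher in PF, against 4.84%, and 11 were not called. Their median log2 fold change was -1.84. M was highest for 13 of the 15 genes higher in SF, for both genes higher in PF and for all 11 others.

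All 3 genes of chitin turnover were higher in SF. Chitin synthase 2 (Cluster-5789.11830), an enzyme that makes chitin, had 6.79 and 7.30 CPM in PF and 388 and 140 in SF. It had 66.8 and 58.4 CPM in JF and 520 in each M library. PF was lowest, JF intermediate, and SF replicate 1 came near to M. The log2 fold change of PF vs SF was -5.23 (standard error 0.52, adjusted p = 0.00195). Chitinase 5 (Cluster-5789.5191), which cleaves chitin and in insects acts in the moult, had 16.1 and 12.9 CPM in PF and 538 and 96.3 in SF. It had 207 and 173 CPM in JF, between the SF libraries, and 1147 and 1140 in M. Its log2 fold change was -4.45 (standard error 0.82, adjusted p = 0.0139). The call was lost without either PF library. On the 4 libraries alone it was lost with edgeR (adjusted p = 0.0875) but not with DESeq2 (adjusted p = 6.28e-07). Chitinase 8 (Cluster-5789.7417), another enzyme of this family, had 11.6 and 8.71 CPM in PF, 705 and 252 in SF, 52.6 and 51.7 in JF, and 1028 and 997 in M. Its log2 fold change was -5.55 (standard error 0.54, adjusted p = 0.00185). Chitin synthase 2 and chitinase 8 were called under each of the 21 alternatives. Without SF replicate 1 the log2 fold changes of the 3 genes were smaller, with -4.36 for chitin synthase 2, -2.78 for chitinase 5 and -4.68 for chitinase 8. Without SF replicate 2 that of chitinase 5 was -5.22.

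The tables hold no unigene sequences. The primer pairs by which the study amplified these 3 unigenes and Cluster-5789.11844, which was highest in SF, are shown because they tie each ID to a stretch of its transcript. They are given 5′ to 3′ as listed in the study's supplement.
Chitin synthase 2, forward: ctccatcgcttcctgtta
Chitin synthase 2, reverse: gcatcgttcgttcatcaa
Chitinase 5, forward: atccgttatcttcttactcgta
Chitinase 5, reverse: atcatcatagccaatccattg
Chitinase 8, forward: aggatcagcgtagtaagc
Chitinase 8, reverse: catcagcatcaaccacag
Cluster-5789.11844, forward: tcgtagccttgaggattc
Cluster-5789.11844, reverse: gcacaactaacagataccatt

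The 6 genes of trypsins and a serine protease, enzymes that cleave proteins and in arthropods serve digestion and other processes, split into called and uncalled members. The serine protease ami-like gene (Cluster-5789.2039) had 5.53 and 4.44 CPM in PF, 404 and 116 in SF, 64.6 and 63.3 in JF, and 522 and 517 in M. Its log2 fold change was -5.70 (standard error 0.65, adjusted p = 0.00307). Cluster-5789.11655, listed as trypsin alpha-like, had 29.8 and 31.4 CPM in PF, 541 and 239 in SF, 85.2 and 81.1 in JF, and 742 and 751 in M, with a log2 fold change of -3.67 (standard error 0.38, adjusted p = 0.00194). These 2 genes and the 3 of chitin turnover had the same order of stages by mean, with PF lowest, then JF, then SF, and M highest. In all 5, SF replicate 1 was between 2.27 and 5.59 times SF replicate 2. Without SF replicate 1 the log2 fold change of the serine protease gene was -4.59 and that of the trypsin alpha-like gene -3.02, and without SF replicate 2 the former was -6.34.

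The other 4 trypsins were not called. Putative trypsin-7 (Cluster-5789.3677) had 13.01 and 6.82 CPM in PF and 53.2 and 18.3 in SF (log2 fold change -1.85, standard error 0.54, adjusted p = 0.0524). It lay so near the threshold that 8 of the 21 alternatives called it. Cluster-5789.9553, Cluster-5789.9554 and Cluster-5789.7668 had log2 fold changes of -0.25, 0.24 and 0.22 (adjusted p from 0.68 to 0.873). For Cluster-5789.9553 the libraries of both stages interleaved, with 5.49 and 1.30 CPM in PF and 7.41 and 0.810 in SF against 471 and 472 in M. Trypsins form a gene family, so reads could have been split between its members.

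**Figure D4:**
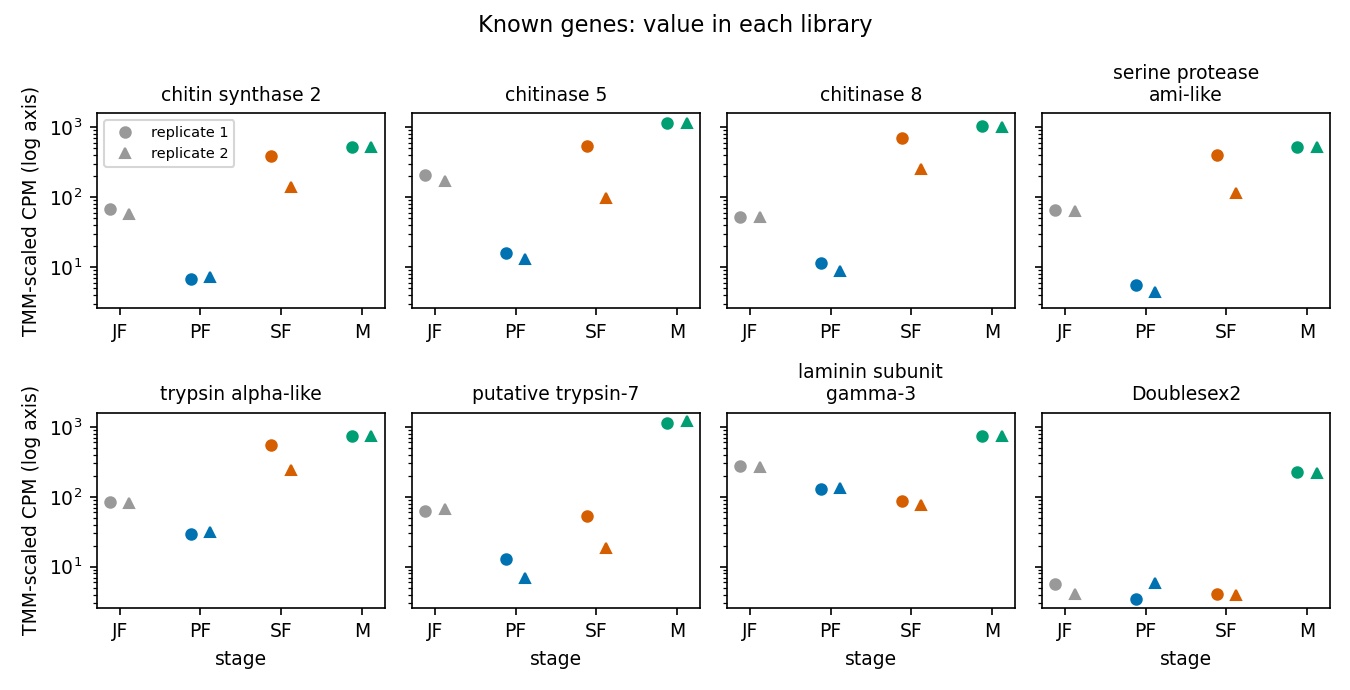
TMM-scaled CPM (vertical log axis) of 8 known genes in every library, by stage; circles are replicate 1 and triangles replicate 2. In the 5 chitin and protease genes called in PF vs SF, PF lies lowest and SF replicate 1 above SF replicate 2, whereas *Doublesex2* is low in all female libraries.

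The laminin gamma-3 gene (Cluster-5789.8159), which encodes a part of the basement membrane, had a positive change. It had 127 and 132 CPM in PF, 86.3 and 75.8 in SF, 273 and 266 in JF, and 743 and 745 in M. SF was lowest of all stages and the libraries did not overlap. The log2 fold change was 0.67 (standard error 0.11, adjusted p = 0.00701), which passed the p threshold but not the 2-fold limit of a DEG.

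The uncharacterized genes of the list held both kinds of pattern. Of the 17 listed, 10 were higher in SF, 2 were higher in PF and 5 were not called. Among the 10, 8 had their highest mean in M and log2 fold changes from -5.86 to -1.33. SF replicate 1 was above SF replicate 2 in 7 of these 8. Cluster-5789.1931 changed most among them, with 7.52 and 15.4 CPM in PF, 864 and 462 in SF, 63.2 and 66.4 in JF, and 914 and 913 in M (log2 fold change -5.86, or -6.46 without PF replicate 2, standard error 0.49, adjusted p = 0.00123). The weakest was Cluster-5789.1251, with 139 and 239 CPM in PF and 631 and 317 in SF (log2 fold change -1.33, standard error 0.37, adjusted p = 0.044), whose call was lost in 6 of the 8 fits with a library left out. It was also lost with the replicate number as a block (adjusted p = 0.0797) and with library size only (adjusted p = 0.0518). The same held with edgeR on the 4 libraries alone (adjusted p = 0.158) and with glmTreat (adjusted p = 0.624).

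The remaining 2 of the 10 had their highest mean in SF. By the study's qPCR, a separate measurement, both were higher in M than in each female stage. The counts of Cluster-5789.11844 go the other way for both SF libraries and for PF replicate 2. Those of Cluster-5789.11654 do so for SF replicate 1 only. Cluster-5789.11844 had 27.2 and 182 CPM in PF, 1832 and 3506 in SF, 8.11 and 12.1 in JF, and 32.0 and 31.4 in M. As in Cluster-5789.207, the second library was the higher one in both adult female stages. The log2 fold change was -4.68 (standard error 0.96, adjusted p = 0.0193), -3.94 without PF replicate 1 and -6.62 without PF replicate 2. The call was lost without SF replicate 2. It was also lost with glmTreat (adjusted p = 0.0649) and with edgeR on the 4 libraries alone (adjusted p = 0.101). Cluster-5789.11654 had 0.610 and 3.19 CPM in PF, 384 and 165 in SF, 0.523 and 1.15 in JF, and 181 and 179 in M. It was low in all PF and JF libraries, and SF replicate 2 lay below both M libraries, so that its highest mean in SF rests on SF replicate 1. The log2 fold change was -7.22 (standard error 0.92, adjusted p = 0.00465, and 0.0536 with edgeR on the 4 libraries alone). It was -6.47 without PF replicate 1, -8.80 without PF replicate 2 and -6.55 without SF replicate 1.

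Both genes higher in PF had JF above PF and PF above SF. Cluster-5789.9162 had 3.29 and 2.98 CPM in PF, 0.649 and 0.572 in SF, 9.73 and 6.997 in JF, and 97.3 and 100.3 in M. Its log2 fold change was 2.35 (standard error 0.22, adjusted p = 0.00133). Its neighbour by ID, Cluster-5789.9163, had 11.3 and 7.14 CPM in PF, 2.64 and 4.48 in SF, 42.5 and 27.3 in JF, and 449 and 452 in M, with a log2 fold change of 1.37 (standard error 0.36, adjusted p = 0.0347). With the replicate number as a block, the latter was not called (adjusted p = 0.0593), nor with edgeR on the 4 libraries alone (adjusted p = 0.107). It was also not called without PF replicate 1, SF replicate 1 or either M library (adjusted p = 0.0719 to 0.154).

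The SF libraries differed from each other in a set of genes rather than throughout. Over all tested unigenes, SF replicate 1 was above SF replicate 2 in 49.0%, and a more than 2-fold difference was found for 9.24%. Among the DEGs higher in SF, these shares were 65.1% and 20.7%. Among the 584 DEGs higher in SF with the highest mean in M, SF replicate 1 was the higher library in 485 (83.0%), with a median ratio of 1.57. Among the 271 that peaked in SF it was higher in 101 (37.3%), and among the 225 highest in JF in 117 (52.0%). Of the 1686 tested unigenes that were highest in M but no DEGs, it was higher in 59.4%. The distance of SF replicate 1 from PF was thus larger than that of SF replicate 2 for genes that were also high in males. Without SF replicate 1, 461 unigenes were higher in PF and 1030 in SF, and without SF replicate 2 the counts were 458 and 1113.

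**Figure D5:**
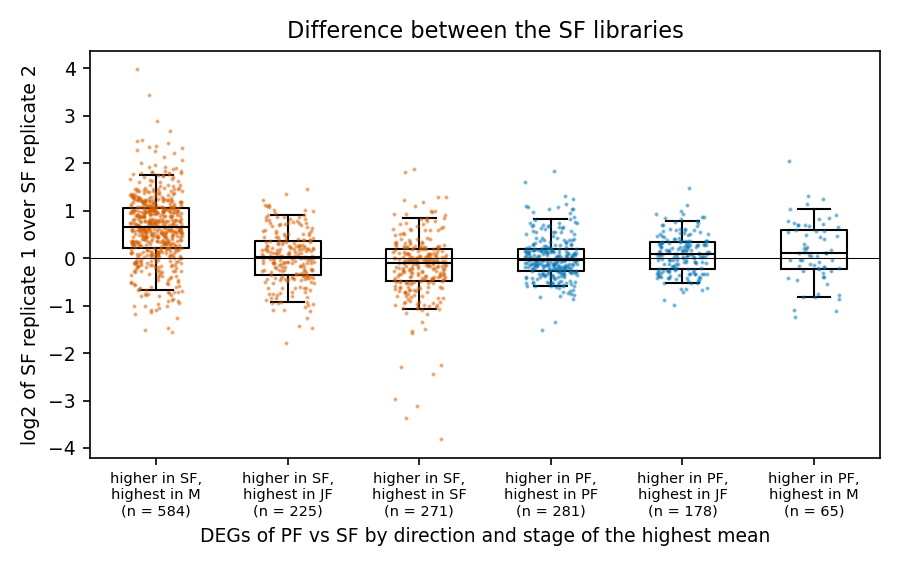
Log2 ratio of SF replicate 1 to SF replicate 2 (vertical axis) for the DEGs of PF vs SF, grouped by direction and by the stage with the highest mean; points are unigenes, boxes give the quartiles and whiskers the 5th and 95th percentiles. The 584 DEGs higher in SF and highest in M lie mostly above 0, with a median of 0.65.

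The PF libraries differed mostly the same way within the DEGs higher in PF. PF replicate 2 was the higher library for 72.5% of the 524 DEGs higher in PF, against 54.1% of all tested unigenes. The median log2 ratio of replicate 1 to replicate 2 was -0.36 in these DEGs and -0.03 over all tested unigenes. In size, the median absolute log2 ratio between the PF libraries was 0.47 in the DEGs higher in PF, 0.39 in those higher in SF and 0.25 over all tested unigenes. A difference of more than 2-fold was found for 6.30%, 11.9% and 8.78% of them. By contrast, the median absolute log2 ratio between the M libraries was 0.05 for the DEGs higher in SF and 0.10 for those higher in PF. Leaving out PF replicate 2 gave 417 DEGs higher in PF and 959 higher in SF, and leaving out PF replicate 1 gave 512 and 1203.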

How the data were processed

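RNA of whole *D. sinensis* was sequenced in 8 libraries, 2 for each of 4 life-history stages. The authors cleaned the paired-end reads of adapter, undetermined and low-quality sequence and built unigenes from all libraries with Trinity. The deposited values are estimated counts per unigene, not scaled between libraries. How reads were aligned and counted is not stated by the labels or methods. The reference gene table holds none of the 11114 IDs, so gene names come from the study's list of 36 male-biased genes only.

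Estimated counts were rounded to integers, passed through filterByExpr with stage as the group, scaled by TMM and fitted by the robust quasi-likelihood method of edgeR 4.0.16 (R 4.3.3 with limma 3.58.1). All 8 libraries entered a single fit with stage as the only term, which left 4 residual degrees of freedom. A unigene was a DEG where its p, adjusted by Benjamini-Hochberg over all 10822 tested unigenes, was under 0.05 and its log2 fold change was above 1 in size. Standard errors were taken as the absolute log2 fold change over the root of F. The script was tested on simulated data. Named were the listed male-biased genes and, in each direction, the ID with the largest change and the ID with the highest level among DEGs with at least 10 CPM. Alternatives were DESeq2 1.42.0, other scalings, filters, thresholds and samples, the replicate number as a block, and each library left out. The members, lists and tests were chosen with earlier results of these data known. The sources do not say whether the 2 pools of a stage came from separate beakers, so p-values measure no more than spread between pools. This is a single spread per unigene, shared over the pools of all stages. For the DEGs higher in SF, the median absolute log2 ratio was 0.53 between SF pools and 0.05 between M pools. The shared spread can therefore be smaller than that of the SF pools.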

Additional observations from a re-analysis of the deposited data

How the results depend on the processing

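With 2 pools per stage, the spread was estimated over all stages, and each call rests on few libraries. With edgeR on the 4 libraries alone, DEGs in PF vs SF numbered 196 (higher in PF) and 513 (higher in SF). DESeq2 gave 521 and 1090 on these 4 libraries and 631 and 1206 on all 8. Of the 32 named unigenes, 7 lost a call with edgeR on the 4 libraries. With DESeq2 on them 0 lost a call and 1 gained it. The DEGs numbered 126 and 493 with glmTreat, and 1449 were higher in PF with the adjusted p alone. The split between directions moved by over 10 percentage points with these thresholds only (20.4% and 48.6% higher in PF, against 32.7%), and scaling moved it to at most 36.3%. With each library left out the counts were 417 to 512 and 886 to 1203. The replicate number as a block gave 499 and 1012. Deviations of same-numbered libraries of PF and SF correlated at 0.06 over all tested unigenes. Whether such libraries share more than a number was not tested. The cause of the differences between the counts above was also not tested.

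With the adjusted p alone, M was nearer to PF for 485 of 1449 unigenes higher in PF (33.5%), and JF was nearer to the higher stage for 681 of these (47.0%) and 903 of 1535 higher in SF (58.8%). In M vs JF, 395 of the former list were then higher in M and 527 higher in JF, and 368 of the latter were higher in JF. Without SF replicate 1, M was nearer to PF for 251 of 461 DEGs (54.4%). With glmTreat, M was nearer to the higher stage for 54 and 462 DEGs and JF for 96 and 233. In M vs JF, 7 and 18 DEGs higher in PF were higher in M and in JF, and 271 and 24 of those higher in SF. Storey's q-value gave 166 DEGs higher in SF that were higher in JF. Without single libraries, 47 to 88 DEGs higher in PF were higher in M and 112 to 173 higher in JF.

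The sign changed only for genes that were not called. Cluster-5789.2177 had 0.0221 with DESeq2 size factors, 0.0231 with library size only and 0.0218 with DESeq2 on all 8 libraries, and -0.30 to 0.15 with libraries left out. In these fits Cluster-5789.7668 ranged from -0.52 to 0.68, Cluster-5789.9554 from -0.41 to 1.41, Cluster-5789.9553 from -1.70 to 2.05, Cluster-5789.6049 from -0.27 to 0.42, Cluster-5789.697 from -0.0497 to 0.49 and Cluster-5789.12340 from -0.20 to 0.52. Of 672 values of named unigenes, 617 kept direction and call, 34 lost a call and 9 gained it.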
